A study of Mus musculus with 20 samples.

Results

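The interleukin genes and interleukin receptor genes of adipose tissue were examined here, apart from Il1a, Il1b, Il1rn, Il1r1, Il1r2, Il18, Il6, Il6ra, Il6st and Il11. A gene was a member when its symbol in the deposited table begins with Il and a digit. Of the 25219 genes in the table, 86 fit that pattern, 10 were left out by name, 3 were bracketed copies of other genes, and 73 remained. They comprise 33 ligands, 37 receptor chains, 1 secreted inhibitor (Il18bp) and 2 others, the enzyme gene Il4i1 and the antisense transcript Il1bos. Il22ra2, which encodes the soluble IL-22 binding protein, was counted with the receptor chains.

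The study deleted α4, the product of Igbp1 and a regulatory partner of protein phosphatase 2A, in adipocytes of adult male mice. RNA was sequenced from inguinal white adipose tissue (iWAT) and brown adipose tissue (BAT), giving 4 groups of 5 libraries each. Ai-α4KO mice carried floxed Igbp1 and the tamoxifen-inducible Adiponectin-CreERT2 transgene, whose promoter is active in adipocytes, so other cells of the tissue keep the gene. Control mice received tamoxifen as well; the labels call them WT, while the methods describe mice with floxed alleles that lack the Cre transgene. Injections began at 2 months of age, and the tissue was taken 1 week after recombination. The labels do not say that the libraries of a group come from separate animals, so the p-values measure the spread between these libraries. Nor do they say whether iWAT and BAT libraries of the same number come from the same mouse, and the comparisons between tissues treat them as independent.

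Interleukins are secreted signals that immune and stromal cells use to recruit, expand and restrain one another. Most bind paired receptor chains that work through Janus kinases and STAT factors, while the IL-1-like and IL-17 receptors use the adaptor MYD88 or its IL-17 counterpart and NF-κB. In adipose tissue IL-33 from stromal cells is known to maintain type 2 lymphoid cells and regulatory T cells, IL-4 and IL-13 act on resident macrophages, and IL-10 is a restraining product of macrophages. Adipocytes, stromal cells, endothelium and leukocytes are all in the tissue that was sequenced. In bulk RNA a larger number of cells of a type cannot be told apart from more RNA in each cell.

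Deletion was visible in every library: Igbp1 was at 71.5 ± 7.43 CPM in Control and 11.4 ± 0.397 CPM in Ai-α4KO iWAT (SD, n = 5 each), and at 89.6 ± 5.79 and 15.8 ± 4.44 CPM in BAT. CPM is the count scaled to the library total after TMM normalization within a tissue. Library totals ran from 24023371 to 50384446 counts. Adipocyte markers were present in all libraries, and the 6 brown adipocyte markers summed to 6900 to 10600 CPM in Control BAT against 96.2 to 855 CPM in Control iWAT. Control iWAT libraries 1 and 4 stood apart, with B cell markers summing to 615 and 242 CPM against 7.91 to 9.94 CPM in the other Control iWAT libraries, and T cell markers at 252 and 271 CPM against 9.51 to 12.7 CPM. Skeletal muscle markers ran from 898 to 9560 CPM in Control BAT and from 12400 to 42400 CPM in Ai-α4KO BAT. In iWAT they summed to 7940 CPM in Control library 4, to 5890 CPM in Ai-α4KO library 1 and to 4.80 to 197 CPM in the other libraries.

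Upstream sequences are shown first for 4 genes that were higher in Ai-α4KO libraries of both tissues, a pair of ligands and a pair of receptor chains. They are the 250 bases before the RefSeq start site in GRCm38.p6, read 5′ to 3′ on the plus strand, and capitals mark matches to the motifs listed after them. The windows are chr19:29924863-29925112 for Il33, chr2:24186226-24186475 for Il1f9, chr7:125552021-125552270 for Il4ra and chrX:36111858-36112107 for Il13ra1.

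Il33: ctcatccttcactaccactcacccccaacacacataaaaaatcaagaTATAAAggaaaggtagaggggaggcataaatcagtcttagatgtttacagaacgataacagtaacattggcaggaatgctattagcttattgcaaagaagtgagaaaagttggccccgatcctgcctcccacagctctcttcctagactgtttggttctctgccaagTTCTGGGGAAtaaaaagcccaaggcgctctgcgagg

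Il1f9: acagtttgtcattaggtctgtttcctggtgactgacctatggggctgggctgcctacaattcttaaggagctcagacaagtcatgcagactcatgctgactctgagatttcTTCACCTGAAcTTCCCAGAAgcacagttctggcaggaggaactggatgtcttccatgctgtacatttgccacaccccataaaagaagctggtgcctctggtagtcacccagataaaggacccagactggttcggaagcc

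Il4ra: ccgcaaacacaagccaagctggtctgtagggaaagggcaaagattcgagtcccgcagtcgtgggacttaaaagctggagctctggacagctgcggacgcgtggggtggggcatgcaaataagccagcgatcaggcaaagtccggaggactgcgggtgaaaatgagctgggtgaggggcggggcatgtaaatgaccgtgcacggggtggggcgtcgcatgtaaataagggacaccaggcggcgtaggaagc

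Il13ra1: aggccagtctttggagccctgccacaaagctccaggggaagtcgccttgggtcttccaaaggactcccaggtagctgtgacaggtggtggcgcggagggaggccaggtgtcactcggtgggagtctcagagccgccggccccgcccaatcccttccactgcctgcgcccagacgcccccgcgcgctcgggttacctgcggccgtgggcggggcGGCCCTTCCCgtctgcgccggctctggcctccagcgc

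The motifs were searched on both strands and may overlap. The spacing that STAT6 prefers, TTCNNNNGAA, was in the Il33 window 36 bases before the start site and in the Il1f9 window 139 bases before it. The shorter STAT spacing, TTCNNNGAA, was in the Il1f9 window 128 bases before the start site, and a loose NF-κB form, GGGANNNNCC, was in the Il13ra1 window at 37 bases. TATAAA was in the Il33 window at 203 bases, and the Il4ra window held none of the letters searched. Over all 17944 genes with such a window, TTCNNNNGAA was found in 5.49%, TTCNNNGAA in 6.82%, GGGANNNNCC in 19.6%, TATAAA in 12.1%, the AP-1 form TGANTCA in 6.45% and the C/EBP form TTGCNNAA in 9.06%. Of 56 members with a window, 9 held TTCNNNNGAA (16.1%), 6 held TTCNNNGAA (10.7%), 10 held GGGANNNNCC (17.9%), 9 held TATAAA, 9 held TGANTCA and 10 held TTGCNNAA. A match describes letters only and does not show that a factor binds there.

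In iWAT, 14 of the 42 members with enough counts to be tested were higher in Ai-α4KO than in Control libraries and 2 were lower. A gene was called at an adjusted p below 0.01 in edgeR's quasi-likelihood test and a fold change of at least 2; over all 14604 genes tested, 11.3% were called higher and 10.7% lower. In BAT 24 of 39 members were higher and 2 lower, against 18.2% and 13.3% of 14344 genes. The median log2 fold change of the tested members was 0.48 in iWAT and 1.62 in BAT, beside medians of 0.01 and -0.03 over all genes. The iWAT median of the members was higher than 0.48 when the Control iWAT libraries with high B cell markers were left out. Of the tested ligands 6 of 10 were higher in iWAT and 8 of 11 in BAT, and of the receptor chains 7 of 30 and 15 of 26.

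The members called higher in both tissues numbered 13: Il33, Il1f9, Il10, Il12b, Il15 and Il23a among the ligands, and Il1rl1, Il1rap, Il18rap, Il4ra, Il13ra1, Il13ra2 and Il10ra among the receptors. Il17re was lower in both tissues. Il18bp was called higher in iWAT alone and 11 members in BAT alone, while Il34 was called lower in iWAT and Il15ra in BAT; being called in 1 tissue does not show a difference between tissues, which was tested separately. The 30 members tested in neither tissue include 15 with at most 3 counts in every library, and 10 had no count at all: Il3, Il9, Il20, Il24, Il31, Il1f5, Il1f8, Il1f10, Il1rapl1 and Il11ra2. A count of 0 allows up to 3 counts in a library.

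**Figure D1:**
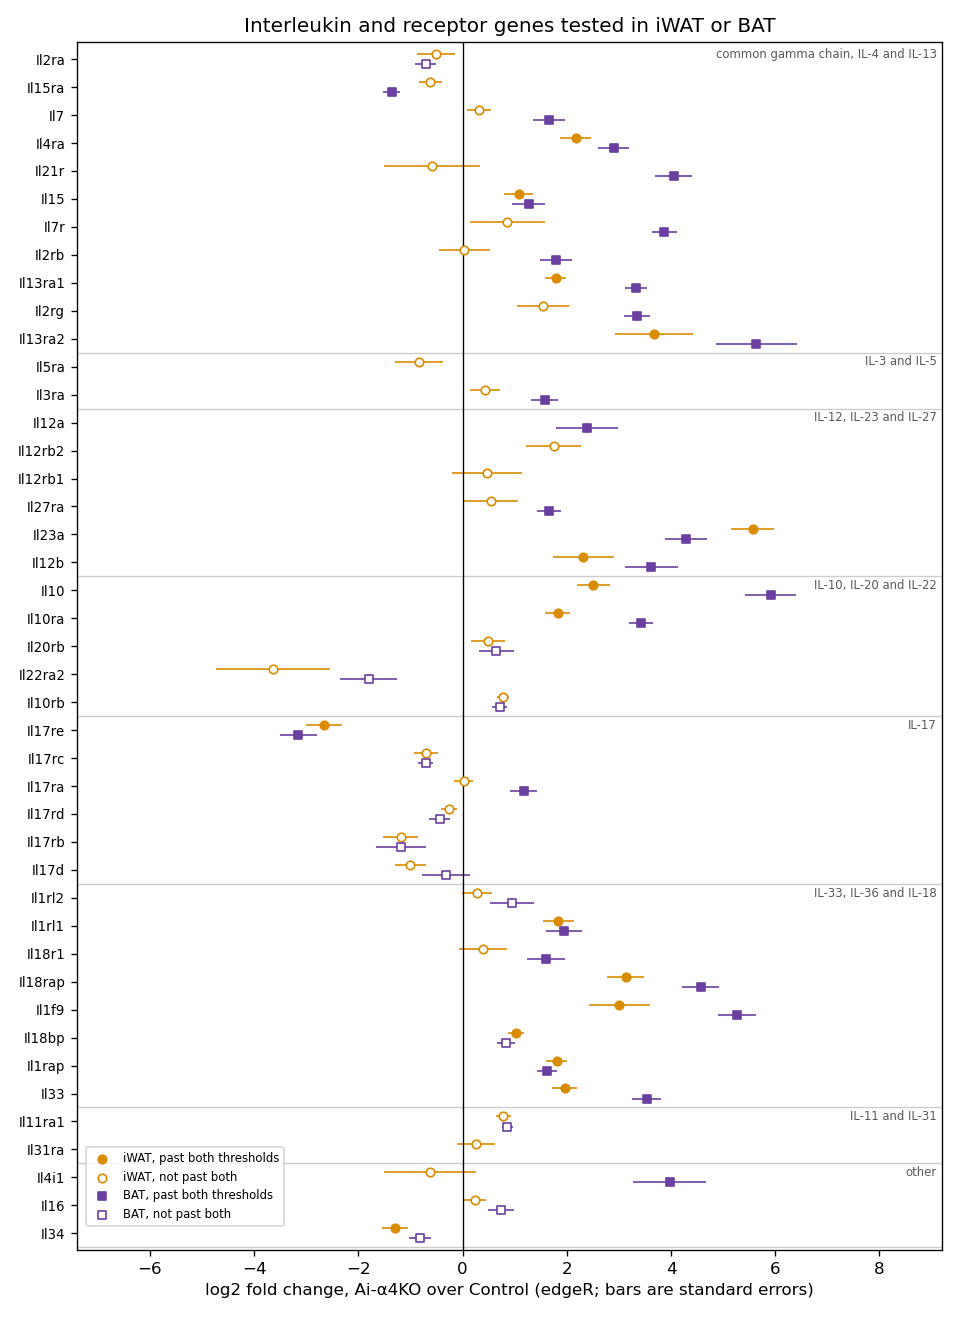
Log2 fold change of Ai-α4KO over Control (x axis) for the 43 interleukin and receptor genes tested in iWAT (circles) or BAT (squares), grouped by family; bars are standard errors and filled symbols passed both the adjusted p and the fold threshold. Most filled symbols lie to the right of 0, those of Il17re, Il34 and Il15ra to the left.

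Leaving out Control iWAT libraries 1 and 4 raised the members called higher in iWAT from 14 to 20 of 43 tested (11.9% of all genes), with 2 lower (11.8%). With the B cell marker score as a covariate the numbers were 19 and 2 of 42 (13.0% and 10.8% of all genes). In BAT a skeletal muscle marker score as a covariate left 19 members higher (11.8% of all genes) and 1 lower (11%). The summed muscle markers did not overlap between Control and Ai-α4KO BAT. The score and the genotype therefore cannot be told apart in this fit, and a call lost in it decides nothing about muscle. Il1rl1, Il7, Il12a, Il17ra and Il15 were then no longer called higher and Il15ra no longer lower. Macrophage markers moved with the genotype: 9 of 10 were called higher in iWAT and 10 of 10 in BAT, their sum ran from 1130 to 1930 CPM in Control and from 6860 to 9190 CPM in Ai-α4KO iWAT, from 215 to 497 and from 3620 to 5820 CPM in BAT, and none was at 0. The part of these cells in the results below was not tested.

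Among the IL-33, IL-36 and IL-18 genes 6 of 8 tested members were called higher in each tissue and none lower, beside 11.3% of all genes called higher in iWAT and 18.2% in BAT. Il33 (chr19:29925114-29960715, plus strand, in the coordinates of the deposited mm10 table) encodes a nuclear alarmin that is released from damaged or activated stromal cells. It was at 35.9, 37.5, 15.8, 21.2 and 25.3 CPM in the Control iWAT libraries and at 77.1, 100, 124, 123 and 106 CPM in the Ai-α4KO iWAT libraries. In BAT the Control libraries held 3.90, 10.7, 4.11, 8.66 and 6.67 CPM and the Ai-α4KO libraries 91, 101, 65.5, 66.6 and 70.4 CPM. Every Ai-α4KO library lay above every Control library of its tissue. The log2 fold change was 1.96 (SE 0.24, adjusted p = 4.80e-05, edgeR) in iWAT and 3.53 (SE 0.28, adjusted p = 7.80e-07, edgeR) in BAT.

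Il1rl1 (chr1:40429570-40465414) encodes ST2, the IL-33 receptor, and Il1rap the accessory chain that ST2 shares with other receptors of the family. Il1rl1 was at 11.2, 14.6, 16.9, 7.70 and 9.70 CPM in Control iWAT and at 26.8, 27.8, 42, 51.9 and 66.8 CPM in Ai-α4KO iWAT. The BAT libraries held 1.26, 4.0, 2.27, 5.55 and 1.85 CPM in Control and 12.7, 11.6, 14.3, 10.7 and 8.98 CPM in Ai-α4KO libraries. The groups did not overlap in either tissue, and the log2 fold changes were 1.84 (SE 0.29) in iWAT and 1.95 (SE 0.35) in BAT, the latter falling to 1.49 and losing its call with the muscle score. Il1rap ran from 5.65 to 9.58 CPM in Control and 22.4 to 39.7 CPM in Ai-α4KO iWAT (log2 fold change 1.81, SE 0.20) and rose by 1.62 (SE 0.19) on the log2 scale in BAT.

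Il1f9 (chr2:24186476-24193567) encodes IL-36γ, an epithelial and myeloid cytokine of the IL-1 family. The Control iWAT libraries held 0.969, 2.34, 0.359, 0.556 and 3.26 CPM and the Ai-α4KO iWAT libraries 13.0, 20.6, 12.6, 5.16 and 9.06 CPM. In Control BAT it was at 0.824, 0.291, 0.306, 0.372 and 0.501 CPM, and in Ai-α4KO BAT at 19.2, 22.6, 13.2, 9.37 and 23.9 CPM. All Ai-α4KO libraries exceeded the Control libraries, with log2 fold changes of 3.01 (SE 0.59, adjusted p = 0.00134, edgeR) and 5.27 (SE 0.36, adjusted p = 2.44e-07, edgeR). Il1rl2, its receptor, was at 18.1 ± 5.29 CPM in Control and 21.9 ± 7.57 CPM in Ai-α4KO iWAT (SD, n = 5 each), a difference that did not pass the test (log2 fold change 0.28, SE 0.29). In BAT its log2 fold change was 0.95 (SE 0.42), also not past the thresholds. The other IL-36 ligands, Il1f6 and Il1f8, had at most 2 counts in any library.

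Of the chains of the IL-18 receptor, Il18rap was called in both tissues and Il18r1 in BAT. Il18rap (chr1:40515362-40551705), the signaling chain, was at 4.75, 2.51, 2.59, 4.23 and 2.14 CPM in Control iWAT and at 14.9, 50.5, 31.5, 22.6 and 23.5 CPM in Ai-α4KO iWAT. Levels in BAT were 0.434, 0.473, 0.393, 1.18 and 0.617 CPM in Control and 15.2, 20.1, 15.8, 7.55 and 16.7 CPM in Ai-α4KO libraries. The groups were separate in both tissues (log2 fold change 3.13, SE 0.35, in iWAT and 4.57, SE 0.36, in BAT). Il18r1, the binding chain, was at 2.88 ± 1.87 and 3.83 ± 1.82 CPM in Control and Ai-α4KO iWAT (SD, n = 5 each) and was not called there. Control iWAT libraries 1 and 4 held 5.34 and 4.39 CPM of Il18r1 and the other Control iWAT libraries 0.995 to 1.96 CPM. Its iWAT log2 fold change was 0.40 with all libraries and 1.21 without those 2, also not called. In BAT Il18r1 was called higher with a log2 fold change of 1.60 (SE 0.37), although 1 Ai-α4KO library, at 0.863 CPM, lay within the Control range. Il18bp, the secreted inhibitor of IL-18, was at 11.7 ± 1.58 CPM in Control and 23.8 ± 4.19 CPM in Ai-α4KO iWAT (SD, n = 5 each). The log2 fold change of Il18bp, 1.03 (SE 0.15), sat at the fold threshold: it was 0.96, 0.98 and 0.99 without Control iWAT libraries 1, 2 and 5 and 0.94 without Ai-α4KO iWAT library 3. In BAT it was 0.83 (SE 0.17, adjusted p = 0.00121, edgeR), under that threshold.

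**Figure D2:**
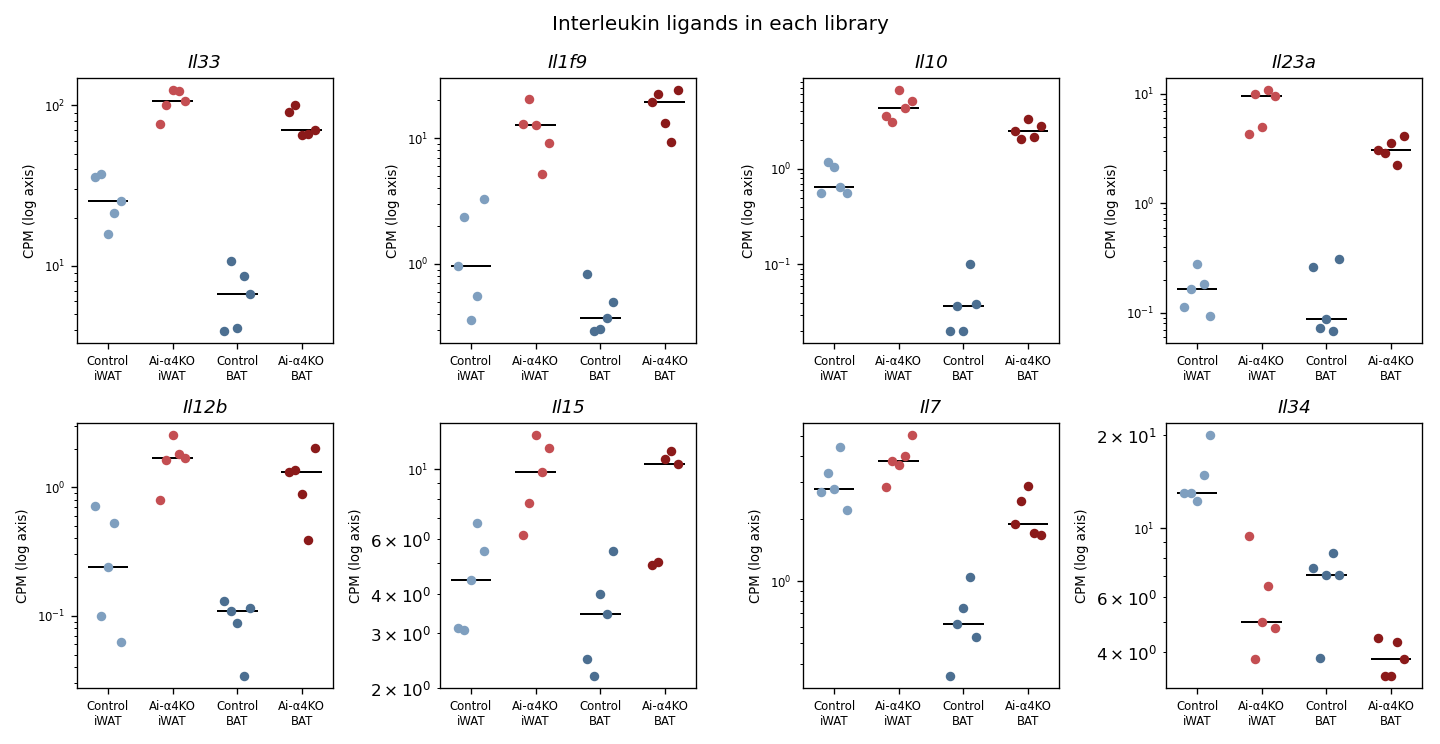
Level of 8 interleukin ligands in each library, as CPM normalized within a tissue on a log axis, with values under 0.02 drawn at 0.02; points are libraries, 5 in each of the 4 groups, and lines are medians. Il33, Il1f9, Il10, Il23a and Il12b show separate groups in both tissues, and Il34 is lower in Ai-α4KO iWAT.

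Of the common gamma chain genes and those of IL-4 and IL-13, 4 of 11 tested members were called higher in iWAT (11.3% of all genes) and 9 in BAT (18.2%), where 1, Il15ra, was lower. The ligands IL-4 and IL-13 were barely seen: Il4 had at most 21 counts and Il13 at most 5 counts in any library, and neither was tested. Their receptor chains were measured well. Il4ra (chr7:125552282-125579474), the chain that binds IL-4, was at 92.0, 63.9, 40.9, 42.4 and 39.2 CPM in Control iWAT and at 278, 362, 267, 188 and 156 CPM in Ai-α4KO iWAT. Its BAT values were 23.1, 18.9, 16, 21.9 and 17.2 CPM in Control and 170, 261, 90.5, 84.9 and 117 CPM in Ai-α4KO libraries. The lowest Ai-α4KO library was above the highest Control library in each tissue, and the log2 fold changes were 2.17 (SE 0.30, adjusted p = 1.15e-04, edgeR) and 2.90 (SE 0.30, adjusted p = 5.48e-06, edgeR).

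Il13ra1 (chrX:36112139-36171261) encodes the chain that pairs with IL-4Rα to bind IL-13. It was at 28.8, 41.1, 22.2, 20.6 and 29.3 CPM in Control iWAT and at 75.9, 118, 114, 80.5 and 101 CPM in Ai-α4KO iWAT. Control BAT held 4.56, 8.95, 7.47, 8.43 and 6.05 CPM and Ai-α4KO BAT 74.1, 92.0, 76.1, 52.6 and 62.2 CPM. Again no Ai-α4KO library fell within the Control range of its tissue, and the log2 fold changes were 1.79 (SE 0.20) and 3.33 (SE 0.21). Il13ra2 (chrX:147383478-147403832, minus strand), a high-affinity IL-13 binding chain long described as a decoy, was near the floor in Control libraries. In Control iWAT it was at 0.698 and 0.680 CPM in libraries 1 and 4 and at 0.0330 to 0.0622 CPM in the others, against 3.08, 5.46, 4.25, 2.47 and 4.96 CPM in Ai-α4KO iWAT. No Control BAT library held more than 3 counts, and Ai-α4KO BAT held 2.87, 1.32, 2.93, 0.922 and 0.596 CPM, so that it was at least 14.7-fold higher (3 counts per library taken as the floor). In iWAT the log2 fold change was 3.67 (SE 0.75, adjusted p = 0.00161, edgeR) with all libraries and 5.88 with the B cell score as a covariate. Without Control libraries 1 and 4 the other Control iWAT libraries held at most 2 counts, and Il13ra2 was at least 36.8-fold higher in Ai-α4KO iWAT.

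**Figure D3:**
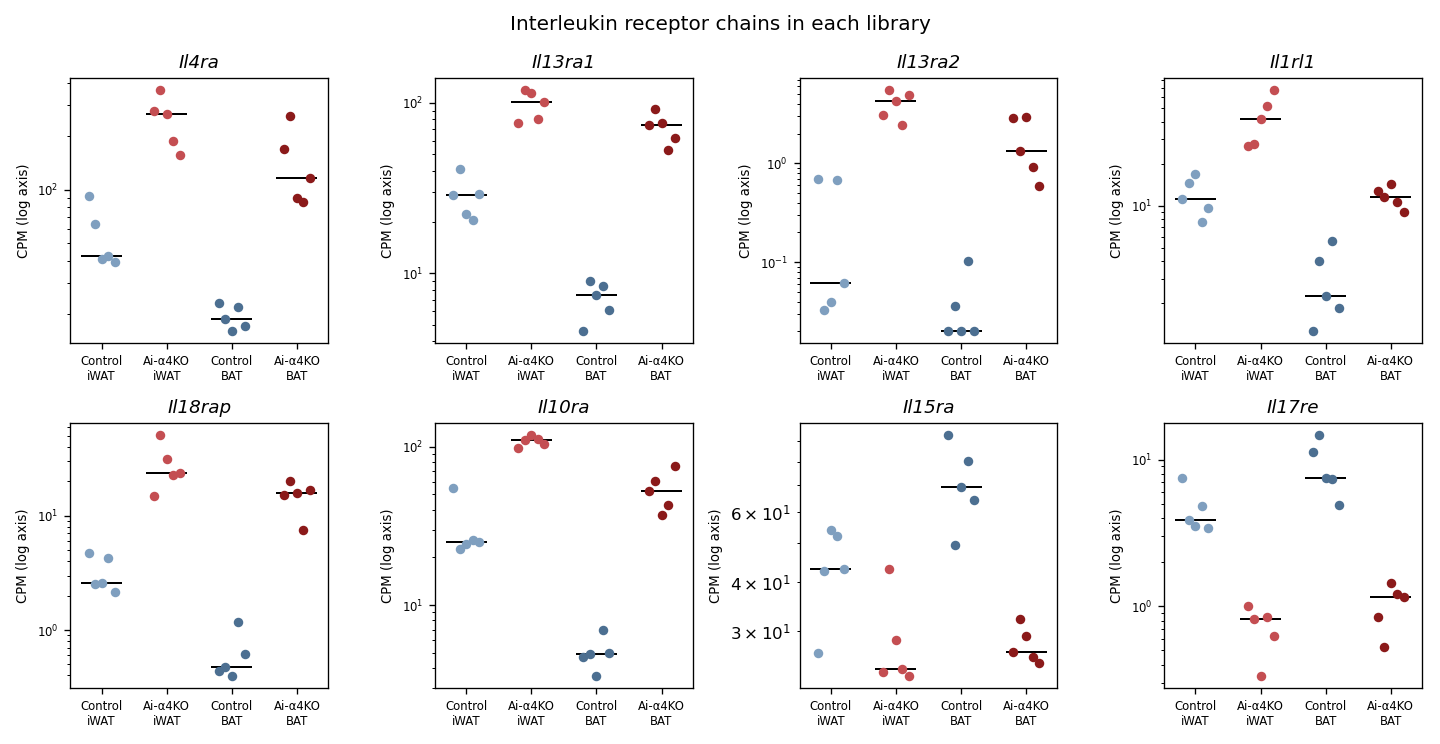
Level of 8 receptor chains in each library, as CPM normalized within a tissue on a log axis, with values under 0.02 drawn at 0.02; points are libraries, 5 in each of the 4 groups, and lines are medians. Il4ra, Il13ra1, Il13ra2, Il1rl1, Il18rap and Il10ra are higher in Ai-α4KO libraries of both tissues, Il17re is lower in both, and Il15ra is lower in BAT.

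Several lymphocyte receptor genes followed the 2 Control iWAT libraries with high B and T cell markers. Il21r (chr7:125603429-125633570), the IL-21 receptor, was at 55.5 and 32.5 CPM in Control iWAT libraries 1 and 4 and at 2.18, 1.08 and 1.86 CPM in the other 3, and the Ai-α4KO iWAT libraries, at 15.8, 14.2, 13.0, 9.95 and 9.42 CPM, lay between. Il7r, the IL-7 receptor chain of lymphocytes, showed the same split, with 18.9 and 26.5 CPM in those libraries, 1.92 to 2.04 CPM in the others and 11.6 to 23.8 CPM in Ai-α4KO iWAT. Il2rg, the common gamma chain, was at 99.8 and 84.0 CPM, 19.4 to 20.4 CPM, and 111 to 194 CPM in the same order. None of the 3 genes was called in iWAT with all libraries (log2 fold changes -0.58, 0.86 and 1.55). Without libraries 1 and 4 all 3 were called higher, with log2 fold changes of 2.78, 3.16 and 2.77, so the value for Il21r turned from negative to positive. Il2rg also passed without library 1 alone (1.95). Il27ra and Il4i1 went from 0.55 and -0.63 to 1.92 and 2.38 and were called as well, and so were Il12rb1 (0.47 to 2.21) and Il12rb2 (1.75 to 1.95), although Il12rb2 was not called with the B cell score as a covariate (2.01). Il2rb, the beta chain of the IL-2 and IL-15 receptors, went from 0.03 to 1.12 and was not called.

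**Figure D4:**
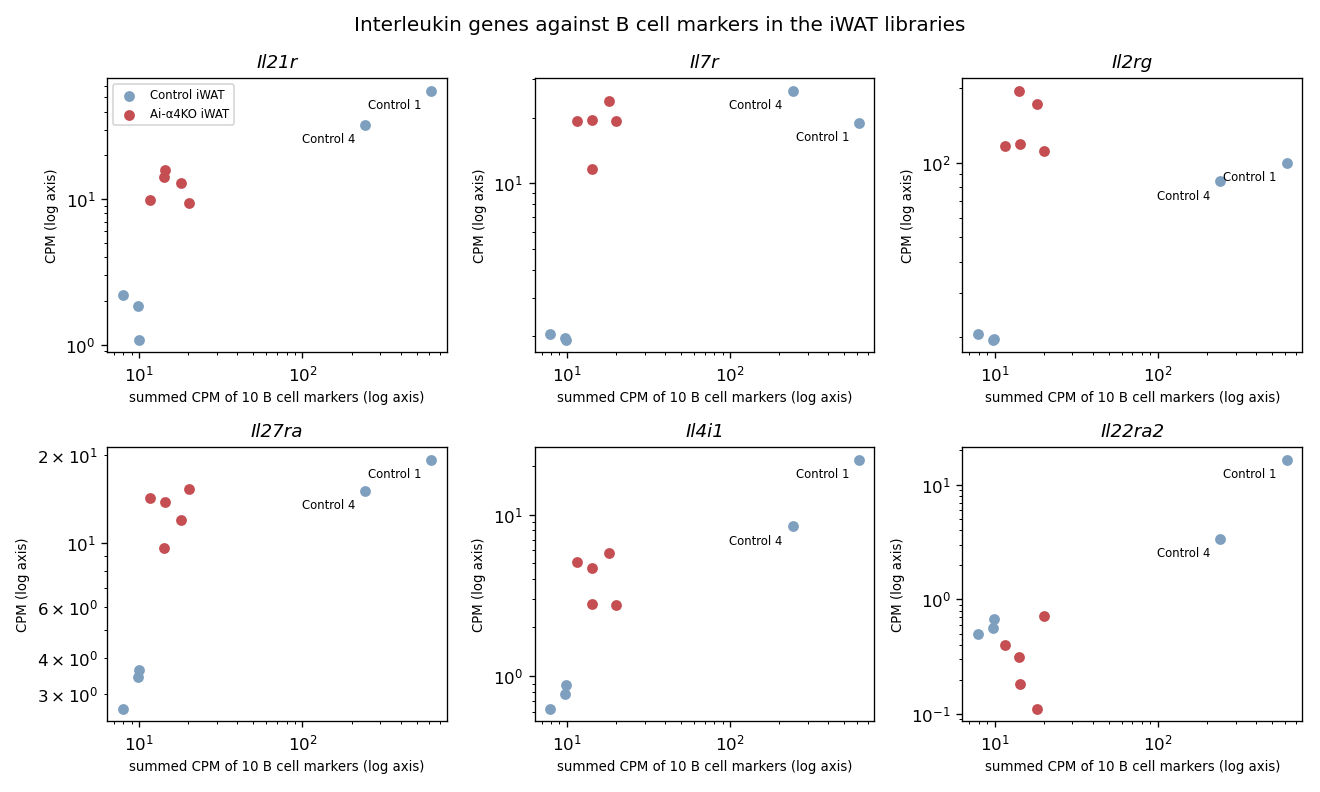
Level of 6 interleukin genes (CPM, log axis) against the summed CPM of 10 B cell markers (log axis) in the 5 Control and 5 Ai-α4KO iWAT libraries; each point is a library. Control libraries 1 and 4 lie far to the right in every panel, at 615 and 242 CPM of the markers, and the other 3 Control libraries lie lowest for all genes except Il22ra2.

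In BAT, where B cell markers summed to 1.60 to 5.25 CPM in Control and 6.84 to 19.3 CPM in Ai-α4KO libraries, Il21r, Il7r, Il2rg, Il2rb, Il27ra and Il4i1 were called higher, while Il12rb1 and Il12rb2 had too few counts to be tested. Il21r was at 1.08, 0.546, 0.35, 0.677 and 0.385 CPM in Control BAT and at 10.2, 13.3, 8.23, 5.15 and 13.5 CPM in Ai-α4KO BAT, a log2 fold change of 4.05 (SE 0.36, adjusted p = 1.83e-06, edgeR). Il7r was at 1.04, 0.728, 1.22, 0.677 and 0.848 CPM in Control and 8.89, 14.5, 16.3, 11.1 and 15.1 CPM in Ai-α4KO libraries (log2 fold change 3.87, SE 0.24). The groups were apart for both genes. Il2rg rose by 3.34 (SE 0.25) and Il2rb by 1.79 (SE 0.31) on the log2 scale, and Il4i1, an amino acid oxidase induced by IL-4, by 3.98 (SE 0.70). T cell markers were called higher for 5 of 7 tested genes in BAT and for none of 8 in iWAT, beside 18.2% and 11.3% of all genes. In iWAT their median log2 fold change was -2.20 with all libraries. Without Control iWAT libraries 1 and 4 it was 1.27, with 2 of 8 called higher (11.9% of all genes).

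The ligands of these receptors were low. Il2 had at most 8 counts and Il21 at most 6 counts in any library, and Il9 had none. Il9r had 162 and 37 counts in Control iWAT libraries 1 and 4 and at most 4 in the other Control iWAT libraries. It had at most 17 counts in the remaining groups and was not tested. Il7, made mainly by stromal cells, was at 3.10 ± 0.855 and 3.86 ± 0.794 CPM in Control and Ai-α4KO iWAT (SD, n = 5 each), which did not pass the test. In BAT Il7 was at 0.347, 0.619, 0.743, 1.05 and 0.539 CPM in Control and 1.88, 2.44, 2.89, 1.70 and 1.66 CPM in Ai-α4KO libraries, all above Control (log2 fold change 1.66, SE 0.31), and the call was lost with the muscle score (1.41).

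Il15 and the chain that presents it moved in opposite directions in BAT. Il15, a survival factor of NK and memory T cells that muscle also makes, was at 3.11, 3.07, 4.43, 6.74 and 5.47 CPM in Control iWAT and at 6.16, 7.82, 12.8, 9.78 and 11.7 CPM in Ai-α4KO iWAT. The BAT libraries held 2.47, 2.18, 3.98, 3.45 and 5.47 CPM in Control and 4.94, 5.06, 10.8, 11.4 and 10.4 CPM in Ai-α4KO libraries. The groups overlapped in both tissues, and the log2 fold changes were 1.08 (SE 0.28, adjusted p = 0.00625, edgeR) and 1.27 (SE 0.32, adjusted p = 0.00430, edgeR). Both calls were lost when single libraries were left out. The iWAT call was lost without Control library 1, 2 or 3 (0.91, 0.97 and 1.02), without Ai-α4KO library 3, 4 or 5 (0.97, 1.08 and 1.01) and without Control libraries 1 and 4 together. The BAT call was lost without Control library 1, 2 or 4 (1.17, 1.14 and 1.26), without Ai-α4KO library 3 or 5 (1.18 and 1.19) and with the muscle score (0.53).

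Il15ra (chr2:11705293-11733985), which binds IL-15 and presents it to neighbouring cells, was at 93.2, 49.3, 69.1, 80.3 and 64.3 CPM in Control BAT and at 26.6, 32.2, 29.1, 25.8 and 25.0 CPM in Ai-α4KO BAT. All Ai-α4KO libraries were below all Control libraries, and the log2 fold change was -1.36 (SE 0.16, adjusted p = 1.52e-05, edgeR); with the muscle score it was -0.94, short of the fold threshold. In iWAT it was at 26.5, 42.5, 53.8, 52.2 and 43.0 CPM in Control and 23.7, 42.9, 28.5, 24.1 and 23.1 CPM in Ai-α4KO libraries, and the log2 fold change of -0.62 (SE 0.22) was not called. Il2ra, the alpha chain of the IL-2 receptor, was at 3.64 ± 0.8 CPM in Control and 2.22 ± 0.366 CPM in Ai-α4KO BAT (SD, n = 5 each) and was not called in either tissue (log2 fold changes -0.51 in iWAT and -0.71 in BAT).

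In the IL-3 and IL-5 family no ligand was measurable, as Il3 had no count and Il5 at most 5. Il3ra, the IL-3 binding chain, was at 10 ± 3.92 and 13.5 ± 4.97 CPM in Control and Ai-α4KO iWAT (SD, n = 5 each; not called) and was called higher in BAT, from 2.42 ± 0.683 to 7.29 ± 2.15 CPM (SD, n = 5 each; log2 fold change 1.58, SE 0.26). Il5ra, the eosinophil IL-5 receptor, had a log2 fold change of -0.83 (SE 0.46) in iWAT, which was not called, and at most 9 counts in any BAT library.

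IL-12, IL-23 and IL-27 are dimers of antigen-presenting cells, and IL-12 and IL-23 share the chain encoded by Il12b. Il23a (chr10:128296140-128298084, minus strand), the chain particular to IL-23, rose in both tissues. It was at 0.113, 0.165, 0.279, 0.185 and 0.0932 CPM in Control iWAT and at 4.30, 9.92, 4.97, 10.7 and 9.53 CPM in Ai-α4KO iWAT. Control BAT held 0.260, 0.0728, 0.0874, 0.0677 and 0.308 CPM and Ai-α4KO BAT 3.04, 2.87, 3.57, 2.23 and 4.07 CPM. The Ai-α4KO libraries were far above Control in both tissues, with at most 8 counts in any Control library, and the log2 fold changes were 5.57 (SE 0.41, adjusted p = 3.31e-06, edgeR) and 4.29 (SE 0.41, adjusted p = 2.94e-06, edgeR).

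Il12b (chr11:44400063-44414677) was at 0.721, 0.0989, 0.239, 0.525 and 0.0622 CPM in Control iWAT and at 0.792, 1.62, 2.53, 1.83 and 1.70 CPM in Ai-α4KO iWAT. No library of Control BAT held more than 3 counts, and Ai-α4KO BAT was at 1.31, 1.37, 0.883, 0.387 and 2.02 CPM, at least 10.2-fold higher. Control iWAT libraries 1 and 4 came nearest to the Ai-α4KO range. The iWAT log2 fold change was 2.32 (SE 0.58, adjusted p = 0.00569, edgeR) and 3.60 without those libraries; the call was lost without Control library 2 or 3 (2.10 and 2.20) and without Ai-α4KO library 2, 3, 4 or 5 (2.34, 2.14, 2.30 and 2.33). Il12a, the chain that makes IL-12 with it, was tested in BAT only, where 1 Ai-α4KO library was at 2.20 CPM and the other 4 at 0.371 to 0.563 CPM against 0.0434 to 0.262 CPM in Control. Its log2 fold change of 2.39 (SE 0.60, adjusted p = 0.00444, edgeR) was not called without Control BAT library 1, 2 or 4 (2.16, 2.36 and 2.33) or with the muscle score (0.23), and Ai-α4KO BAT library 4, the high library, also had the highest muscle markers, at 42400 CPM.

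Of the IL-12, IL-23 and IL-27 genes 2 of 5 tested members were called higher in iWAT (11.3% of all genes) and 4 of 4 in BAT (18.2%), the latter counting Il12a. Without Control iWAT libraries 1 and 4, Il12rb1, Il12rb2 and Il27ra were called higher in iWAT as well. Il12rb1 was at most at 1.35 CPM and Il12rb2 at most at 0.898 CPM in any library. Il12rb2 passed in iWAT without Control library 1 (2.27) or Ai-α4KO library 1 (1.94). Il23r had at most 19 counts and was not tested, and Il27 had at most 16 counts. Il27ra was at 1.43, 1.27, 1.22, 1.93 and 1.73 CPM in Control BAT and at 4.32, 4.96, 5.46, 3.21 and 5.96 CPM in Ai-α4KO BAT, with all Ai-α4KO libraries above Control (log2 fold change 1.65, SE 0.23). Ebi3, which pairs with IL-27 and IL-12 chains and is not named as an interleukin, was called higher in both tissues (log2 fold change 1.17, SE 0.30, and 2.70, SE 0.28).

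In the IL-10, IL-20 and IL-22 family 2 of 5 tested members, Il10 and its ligand-binding chain Il10ra, rose in each tissue, beside 11.3% of all genes in iWAT and 18.2% in BAT. Il10 (chr1:131019845-131024970) was at 0.563, 1.19, 1.04, 0.649 and 0.559 CPM in Control iWAT and at 3.57, 3.09, 6.58, 4.29 and 5.15 CPM in Ai-α4KO iWAT (log2 fold change 2.51, SE 0.31, adjusted p = 5.82e-05, edgeR). In Control BAT 2 libraries had no count and the others 0.0364, 0.102 and 0.0385 CPM, while Ai-α4KO BAT held 2.49, 2.04, 3.33, 2.14 and 2.78 CPM, at least 21.8-fold higher. The groups were apart in both tissues. Il10ra (chr9:45253839-45269146, minus strand) was at 55.3, 22.7, 24.3, 25.7 and 25.2 CPM in Control iWAT and at 98.4, 111, 118, 112 and 104 CPM in Ai-α4KO iWAT. Levels in BAT were 4.69, 4.88, 3.54, 6.94 and 5.01 CPM in Control and 52.7, 60.5, 37.3, 42.6 and 75.2 CPM in Ai-α4KO libraries. Log2 fold changes were 1.83 (SE 0.24) and 3.42 (SE 0.23), again with no overlap.

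Il10rb, which also serves the IL-22 and type III interferon receptors, was at 66.9 ± 8.32 CPM in Control and 115 ± 14.4 CPM in Ai-α4KO iWAT (SD, n = 5 each), with every Ai-α4KO library above Control. The log2 fold changes of Il10rb, 0.78 (SE 0.12, adjusted p = 2.29e-04, edgeR) in iWAT and 0.71 (SE 0.14, adjusted p = 7.86e-04, edgeR) in BAT, passed the adjusted p but not the fold threshold. Il22ra2, the soluble IL-22 binding protein, was at 16.5 and 3.37 CPM in Control iWAT libraries 1 and 4 and at 0.495 to 0.678 CPM in the others, against 0.111 to 0.712 CPM in Ai-α4KO iWAT. Its iWAT log2 fold change was -3.64 (SE 1.1) with all libraries and -0.81 without libraries 1 and 4, and neither was called, although it passed without Control library 2, 3 or 5 (-3.93, -3.93 and -3.92). In BAT it was at 0.662 ± 0.310 CPM in Control and 0.186 ± 0.160 CPM in Ai-α4KO libraries (SD, n = 5 each; log2 fold change -1.80, SE 0.55, not called). Without Control BAT library 5 or Ai-α4KO BAT library 5 that value passed, at -1.99 and -2.30. Il20rb was not called in either tissue, Il22 had at most 1 count in any library and Il19 at most 17, and Il22ra1 reached 76 counts in Ai-α4KO iWAT library 1, with at most 5 counts in the BAT libraries.

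Of 6 tested IL-17 genes none was called higher in iWAT and 1 in BAT, and 1 was lower in each tissue, shares near those of all genes (18.2% higher in BAT, 10.7% and 13.3% lower in iWAT and BAT), and the median log2 fold change was -0.85 in iWAT and -0.57 in BAT. Il17re (chr6:113458484-113470751), the chain that pairs with Il17ra to bind IL-17C, was at 7.46, 3.86, 3.51, 4.82 and 3.39 CPM in Control iWAT and at 1.01, 0.821, 0.333, 0.850 and 0.630 CPM in Ai-α4KO iWAT. Its BAT values were 11.2, 14.6, 7.52, 7.38 and 4.93 CPM in Control and 0.840, 0.524, 1.45, 1.22 and 1.16 CPM in Ai-α4KO libraries. Every Ai-α4KO library lay below every Control library, and the log2 fold changes were -2.66 (SE 0.34, adjusted p = 7.06e-05, edgeR) and -3.15 (SE 0.35, adjusted p = 9.20e-06, edgeR), the latter -3.17 with the muscle score.

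Il17ra, the chain shared by the family, was at 106, 54.4, 70.2, 62.1 and 70.1 CPM in Control iWAT and 81.7, 68.6, 79.8, 54.8 and 81.6 CPM in Ai-α4KO iWAT, ranges that overlapped (log2 fold change 0.02, SE 0.18). In BAT it was at 12.8, 13.7, 9.18, 20 and 16.6 CPM in Control and 41.2, 48.3, 29.1, 20.5 and 23.2 CPM in Ai-α4KO libraries, all above Control although library 4 only just. Its log2 fold change there, 1.17 (SE 0.26, adjusted p = 0.00218, edgeR), was 0.98 without Ai-α4KO BAT library 2, under the fold threshold, and was not called with the muscle score (1.38). Il17rc, its partner for IL-17A and IL-17F, had log2 fold changes of -0.70 (SE 0.23) and -0.71 (SE 0.15), and Il17rb, the IL-25 receptor, of -1.19 (SE 0.34) and -1.19 (SE 0.48), none of them called. Il17rb passed in iWAT without Ai-α4KO library 1 or 4 (-1.39 and -1.40) and in BAT without Ai-α4KO library 1 (-1.69), and Il17d, a ligand expressed outside the immune system, went from -1.0 to -1.19 and passed in iWAT without Ai-α4KO library 4. Il17rd was not called (-0.26 and -0.44). The ligands Il17a, Il17c, Il17f and Il25 had at most 5 counts and Il17b at most 12 counts in any library.

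Il34, a second ligand of the macrophage growth factor receptor CSF1R, was the other member that fell in iWAT. It lies at chr8:110741829-110805924 on the minus strand and was at 13.0, 13.0, 12.2, 14.8 and 19.9 CPM in Control iWAT and 9.45, 3.79, 5.0, 6.53 and 4.76 CPM in Ai-α4KO iWAT. All Ai-α4KO libraries were below Control (log2 fold change -1.30, SE 0.25, adjusted p = 0.00107, edgeR). In BAT Control library 2, at 3.82 CPM, lay within the Ai-α4KO range of 3.33 to 4.42 CPM, and the log2 fold change of -0.81 (SE 0.21) was under the fold threshold. Csf1r itself, counted among the macrophage markers, was called higher in both tissues, by 1.03 (SE 0.20) and 2.74 (SE 0.27).

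Of the remaining members, Il11ra1, the IL-11 receptor, had one of the highest levels per transcript length. It was at 87.6 ± 11.6 CPM in Control and 150 ± 26.8 CPM in Ai-α4KO iWAT and at 48.9 ± 6.08 and 88.8 ± 8.73 CPM in BAT (SD, n = 5 each). Its log2 fold changes of 0.78 (SE 0.14) and 0.86 (SE 0.11) passed the adjusted p and not the fold threshold, with no overlap. Il11ra2, a near copy with no counts, could have lost reads to Il11ra1, so the split between the copies is uncertain. Il16, a T cell chemoattractant, was not called in either tissue (0.23, SE 0.22, and 0.74, SE 0.25), though in BAT it passed without Control library 4 (1.04). Il31ra was at 1.60 ± 0.488 and 1.93 ± 0.938 CPM in Control and Ai-α4KO iWAT (SD, n = 5 each) and at most at 0.249 CPM in the BAT libraries. Il1bos lies antisense to Il1b, and since the strand setting of the counting is not given in the sources used here, its reads cannot be told apart from those of Il1b; it had at most 45 counts in a library and was not tested within a tissue.

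FPKM, which scales a count to transcript length and library total, was used to set genes side by side. In Control iWAT the highest mean levels were those of Il11ra1 at 37.8 FPKM (lowest to highest library 32.3 to 45.8), Il10rb at 30.6 FPKM (25.2 to 34.9), Il2rg at 26.1 FPKM (9.19 to 54.9) and Il15ra at 18.1 FPKM (11.6 to 22.4). These neighbours overlap in range, and Il2rg is raised by libraries 1 and 4. In Control BAT Il15ra led at 28.7 FPKM (19.4 to 38.0), ahead of Il10rb at 23.0 FPKM (18.3 to 26.7) and Il11ra1 at 20.3 FPKM (16.9 to 23.5), which also overlap. In Ai-α4KO iWAT Il2rg reached 81.6 FPKM (63.7 to 110), beside Il11ra1 at 70.8, Il10rb at 57.6, Il4ra at 45.4 and Il33 at 37.6 FPKM. In Ai-α4KO BAT Il2rg, Il10rb and Il11ra1 were at 45.4, 45.2 and 44.2 FPKM, followed by Il33 at 29.9 and Il4ra at 28.4 FPKM, while Il15ra was at 13.5 FPKM (11.6 to 16.4). Il33 was the most abundant ligand in both tissues of Ai-α4KO mice by mean FPKM. It also had the highest mean of the ligands in Control iWAT, at 8.93 FPKM beside Il34 at 6.65 FPKM. In Control BAT Il34 and Il15, at 2.96 and 2.22 FPKM, were above Il33 at 2.13 FPKM. The library ranges of these Control levels overlap.

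**Figure D5:**
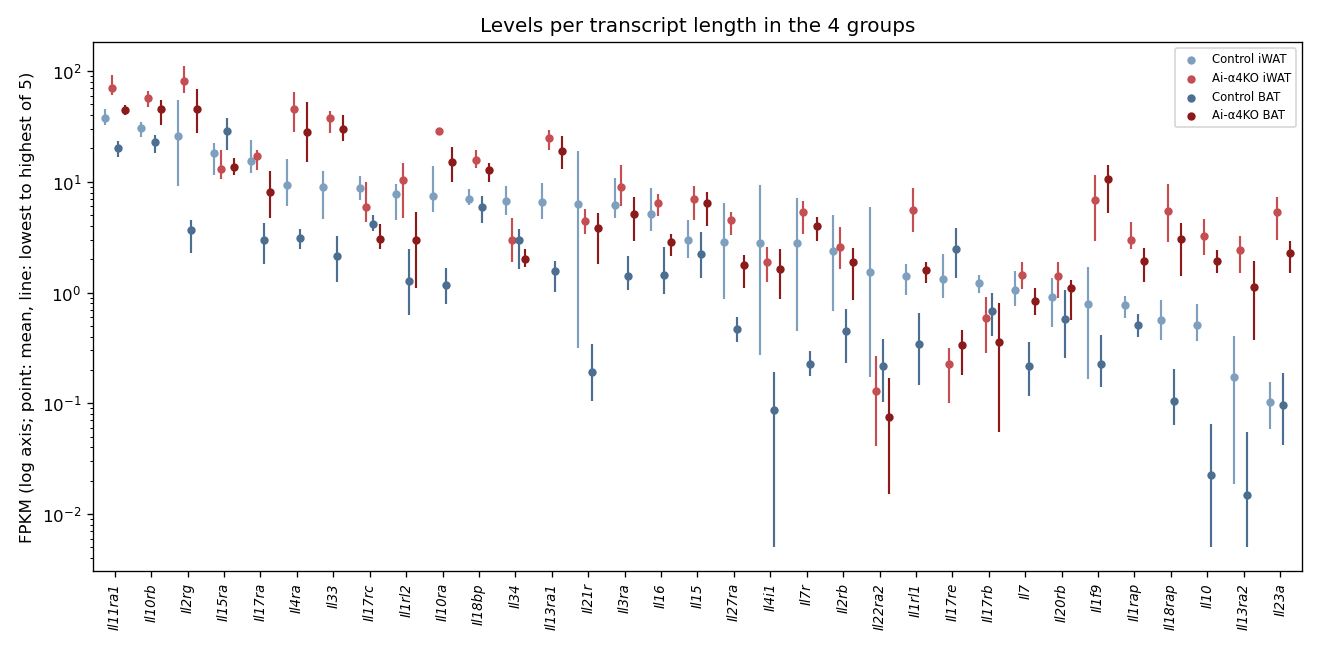
FPKM (log axis) of the 33 members with a group mean of at least 1 FPKM in any group, ordered by their mean in Control iWAT; points are means and lines run from the lowest to the highest of 5 libraries, with values under 0.005 drawn at 0.005. The mean was lower in Control BAT than in Control iWAT for 31 of the 33 genes, Il15ra and Il17re being the others. The share over all genes was not computed, and Control iWAT libraries 1 and 4 raised some means. Il22ra2 was at 5.92 and 1.18 FPKM in those libraries and at 0.174 to 0.208 FPKM in the other Control iWAT libraries. Its Control BAT mean was 0.218 FPKM.

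Many interleukin genes were lower in Control BAT than in Control iWAT. So were 10 of 10 macrophage, 8 of 8 T cell, 9 of 9 B cell and 6 of 7 fibroblast and progenitor markers. T and B cell markers were high in Control iWAT libraries 1 and 4. In the other direction 5 of 6 brown adipocyte and 3 of 6 endothelial markers were called higher in Control BAT. The part of these cells in the differences was not tested. In the fit of all 20 libraries 21 of 44 members were lower in Control BAT and 1 was higher, at the same thresholds. The shares over 15230 genes were 15.4% and 7.34%. The median log2 difference of BAT minus iWAT was -1.63 for the members and 0 for all genes. With the 3 genes at the floor in Control BAT set to their bound it was -1.53 for the members. The median of the members was less negative without Control iWAT libraries 1 and 4. Il10, at or under 3 counts in every Control BAT library, was called lower there, and was at least 6.11-fold higher in Control iWAT. Il33 was at 2.13 FPKM in Control BAT and 8.93 FPKM in Control iWAT (log2 difference -1.83, SE 0.28) and Il17ra at 2.97 and 15.5 FPKM (-2.17, SE 0.25). Without Control iWAT libraries 1 and 4 the count was 18 (12.5% of all genes), with Il18r1, Il4i1, Il27ra, Il7r and Il2rb no longer among them and Il1f9 and Il34 added; without library 1 alone Il18r1 was lost (-1.47). Il22ra2 passed without Control iWAT library 2, 3 or 5 (-2.83, -2.82 and -2.83). Without Control iWAT libraries 1 and 4 its value changed sign to 0.35 and was not called. Il13ra2, at the floor in Control BAT, passed without Control iWAT library 2, 3 or 5 or Control BAT library 4. Without Control iWAT libraries 1 and 4 its value was -0.39 and was not called. Il1f9 passed without Control iWAT library 3 (-1.80), and Il34 without that library (-1.02) or Control BAT library 4 (-1.05). Il17re was the member higher in Control BAT (1.14, SE 0.33), and that call was lost without any of Control iWAT libraries 2, 3, 4 and 5 (1.09, 1.06, 1.16 and 1.05) and Control BAT libraries 1 and 2 (1.06 and 0.90). Il15ra was at 28.7 FPKM in Control BAT and 18.1 FPKM in Control iWAT, a log2 difference of 0.86 (SE 0.20) that did not reach 2-fold.

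The genotype effect differed between tissues for 3 of 44 members at an adjusted p below 0.01, against 4.86% of all genes. Il10 rose more in BAT than in iWAT, by 3.46 on the log2 scale (SE 0.60, adjusted p = 0.00127, edgeR), though this value depends on Control BAT libraries that are at or under 3 counts. For Il10ra the difference was 1.62 (SE 0.33, adjusted p = 0.00387, edgeR) and for Il13ra1 1.57 (SE 0.30, adjusted p = 0.00233, edgeR). All 3 were still called without Control iWAT libraries 1 and 4 (3.80, 1.39 and 1.81), and with limma on log2(FPKM + 1) Il10 and Il10ra were not (0.05 and 0.96). Macrophage markers also differed, with 7 of 10 called in the direction of BAT. Il33 came close (1.59, SE 0.38, adjusted p = 0.0102, edgeR). Without Control iWAT library 3 the count was 6, with Il21r (4.96), Il7r (3.30) and Il33 (1.73) added. Il21r also passed without Control iWAT library 2 or 5 (4.94 each), and Il33 passed without any of Ai-α4KO iWAT libraries 1, 3 and 4 (1.61, 1.76 and 1.75), Control BAT library 2 (1.83) and Ai-α4KO BAT libraries 3 and 5 (1.76 and 1.74). Without Control iWAT libraries 1 and 4 together Il21r, Il7r and Il33 were at 1.33, 0.78 and 1.67, and none was called. Il7 passed without Control BAT library 4 (1.61).

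Genes that act downstream of these receptors were read from lists chosen by function, beside the 11.3% of all genes called higher in iWAT and 18.2% in BAT. Of 11 Janus kinases and STAT factors 1 was called higher in iWAT (Stat2, log2 fold change 1.17, SE 0.21) and 2 in BAT, shares no higher than those of all genes. Of 12 feedback inhibitors 4 were higher in iWAT, namely Socs3 (2.64, SE 0.32), Cish (1.91, SE 0.48), the phosphatase gene Ptpn6 (1.59, SE 0.34) and Socs6 (1.07, SE 0.17), and 3 in BAT. Of 7 partner chains without an interleukin name 3 were higher in iWAT, Csf2rb (1.84, SE 0.18), Csf2rb2 (1.70, SE 0.26) and Ebi3, and 6 in BAT. Csf2rb and Csf2rb2 are near copies whose reads may be split. Among 11 adaptors of the IL-1 and IL-17 receptor families 2 were higher in iWAT, Myd88 (1.75, SE 0.12) and Irak3 (1.14, SE 0.12), and 3 in BAT. No gene of these lists was called lower in either tissue.

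Genes known to respond to IL-4 and IL-13 were called higher for 6 of 12 in iWAT and 10 of 12 in BAT, and none was lower. Over all genes 11.3% were called higher in iWAT and 18.2% in BAT. In iWAT Ccl17, a chemokine for type 2 T cells, rose by 5.12 (SE 0.61), Chil3 by 4.52 (SE 0.69), Pdcd1lg2 by 3.78 (SE 0.62) and Mrc1, the mannose receptor of resident macrophages, by 2.44 (SE 0.25) on the log2 scale. Their sum ran from 1940 to 2780 CPM in Control and from 4440 to 8890 CPM in Ai-α4KO iWAT, and from 405 to 702 and from 1550 to 2440 CPM in BAT. Many of them are macrophage genes, and macrophage markers were higher in the same libraries. The part of macrophages in these values was not tested.

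Markers of other cells that can express these receptors were read in the same way. Over all genes 11.3% were called higher in iWAT and 18.2% in BAT, and 10.7% and 13.3% lower. Counts such as 1 of 6 or 1 of 8 in iWAT and 2 of 7 in BAT lie near those shares. Neutrophil markers were called higher for 4 of 8 tested in iWAT and 6 of 7 in BAT, NK cell markers for 5 of 7 and 6 of 7, dendritic cell markers for 1 of 6 and 5 of 6 with 1 lower in BAT, and mast cell markers for 1 of 8 and 6 of 8 with 1 lower in each tissue. B cell markers were called lower for 1 of 9 in iWAT (Cd79a, median log2 fold change of the list -3.25) and higher for 3 of 5 in BAT; without Control iWAT libraries 1 and 4 none was lower, 2 of 9 were higher and the median was 0.55. Adipocyte markers were called lower for 8 of 10 in iWAT and 7 of 10 in BAT, brown adipocyte markers for 3 of 5 and 3 of 6, and endothelial markers for 4 of 6 in each tissue. Fibroblast and progenitor markers were called higher for none of 7 in iWAT and 2 of 7 in BAT, skeletal muscle markers for none of 9 and 7 of 9, and epithelial markers for none of 4 and 1 of 1. Without Control iWAT libraries 1 and 4, 1 of 4 epithelial markers was called higher in iWAT, and the median of the skeletal muscle markers, none of them called, went from -0.47 to 3.70. Epithelial markers summed to 53.3 and 111 CPM in Ai-α4KO iWAT libraries 1 and 2, to 63.2 and 24.4 CPM in Control iWAT libraries 1 and 4 and to at most 6.08 CPM in the other iWAT libraries, with Krt14 at 0 in Control BAT and Krt15 at 0 in Ai-α4KO BAT. The part of any of these cells in the interleukin results was not tested.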

How the data were processed

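Stranded mRNA libraries of iWAT and BAT were read as pairs of 150 bp. The submitters' processing notes name bcl2fastq 2, STAR 2.5.3a and mm10; the counting tool and annotation are not given in the sources used here. Per gene and library, the table that the authors deposited gives the expected count and the FPKM. Of the nonzero expected counts 76.6% were whole.

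Expected counts were rounded and analysed with edgeR 4.0.16 in R 4.3.3 (filterByExpr, TMM, glmQLFit, quasi-likelihood test, Benjamini-Hochberg over all genes tested), within each tissue for genotype and over all 20 libraries for tissue and the interaction, which needed an adjusted p below 0.01 only. SE is the log2 fold change divided by the root of F. Levels of different genes were compared by FPKM. A group with at most 3 counts in every library was at the floor, giving lower bounds that cover counting error only.

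The members and lists were chosen with earlier results of these data known. Genes named are the members past a threshold, their partners, members by symbol or count, and up to 4 genes per signaling list with the largest change in iWAT; others were named after their values were seen. Adgre1 was matched to Emr1, and Ly6g was not analysed here. Alternatives were DESeq2 1.42.0, other normalizations and filters, an adjusted p below 0.05, limma 3.58.1 on log2(FPKM + 1) and log2(FPKM + 0.1), a replicate block, marker scores as covariates and leaving out libraries. Sequences are from RefSeq.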

Additional observations from a re-analysis of the deposited data

Results flagged for a closer look

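In 9 of 162 groups of 5 libraries, over the members tested in a tissue, the highest or lowest library stood apart by Dixon's criterion at its 95% critical value of 0.71, and chance alone marks about 1 group in 20. In Control iWAT library 1 was the high library for Il10ra (55.3 CPM), Il22ra2 (16.5 CPM) and Il3ra (16.9 CPM), and this library also had the highest B cell markers, at 615 CPM. In Ai-α4KO iWAT library 2 stood apart for Il15ra (42.9 CPM, high) and library 1 for Il17rc (25.1 CPM, high). In Control BAT the libraries that stood apart were library 5 for Il18r1 (0.347 CPM, low), library 4 for Il18rap (1.18 CPM, high) and library 2 for Il34 (3.82 CPM, low). Ai-α4KO BAT library 4 stood apart for Il12a (2.20 CPM, high) and had the highest skeletal muscle markers, at 42400 CPM.

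The effect of the genotype differed between BAT and iWAT for 3 of 44 members (6.82%), against 4.86% of all genes, tested as an interaction in edgeR. They were Il10 (3.46 on the log2 scale, BAT minus iWAT), Il10ra (1.62) and Il13ra1 (1.57). Il10 was at or under 3 counts in every Control BAT library, so its value depends on the floor. With limma on log2(FPKM + 1) the values were 0.05 for Il10 and 0.96 for Il10ra, neither called. In each of Il10, Il10ra and Il13ra1 all 5 Ai-α4KO libraries were above all 5 Control libraries in both tissues. The share of all genes with such a separation was not computed.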

How the results depend on the processing

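No member that passed a threshold changed direction under any alternative run. In iWAT 11 of the 16 called members, in BAT 14 of 26, for the interaction 1 of 3 and for Control BAT against Control iWAT 9 of 22 kept their calls under every alternative that tested them. The number lower in iWAT was 2 and became 5 with DESeq2, 4 with upper-quartile normalization, 4 with at least 10 counts in every library, 4 at an adjusted p below 0.05 and 0 with limma on log2(FPKM + 1). A pseudocount of 1 compresses genes of low FPKM by construction. The number higher in BAT was 24 and became 13 with at least 10 counts in every library, which leaves low genes untested; the number lower became 4 at an adjusted p below 0.05 and 1 with the muscle score. The interaction count of 3 became 11 with DESeq2, 12 at an adjusted p below 0.05 and 1 with limma on log2(FPKM + 1). Il17re, the 1 member higher in Control BAT, was lost (0) without TMM factors, with upper-quartile normalization and with limma at either pseudocount, and the 21 lower became 11 with limma on log2(FPKM + 1). Leaving out 1 library at a time gave 11 to 16 higher and 2 to 4 lower in iWAT (4 without Ai-α4KO library 4), 23 to 25 and 2 to 3 in BAT, 3 to 6 for the interaction, and 0 to 1 higher and 20 to 26 lower in Control BAT.

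Without TMM factors the median log2 fold change of all genes was 0.13 in iWAT and 0.23 in BAT and -0.23 for BAT minus iWAT. The share of calls that were higher, over all genes in BAT, was then 72.0% against 57.8%, in Control BAT against Control iWAT 20.9% against 32.3%, and the members called higher in BAT were 27. Of members not called, 6 changed sign under an alternative in iWAT, none in BAT, 18 for the interaction and 8 for the tissues.

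Control and Ai-α4KO libraries with the same number had deviations correlated from -0.45 to 0.13 in iWAT and -0.15 to 0.22 in BAT, and 0 and 1 of them correlated best with its own number. Between iWAT and BAT the correlations were -0.08 to 0.22 in Control and -0.27 to 0.24 in Ai-α4KO, with 2 best with their own number in each, so pairing by number was not shown. With the replicate number as a block the members called were 13 higher and 2 lower in iWAT, 23 and 2 in BAT, 3 for the interaction, and 1 higher and 21 lower in Control BAT; Il12b in iWAT and Il18r1 in BAT were the calls no longer made. Ligands with few counts, such as Il4, Il13 and Il17a, cannot be compared at this depth.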
